A study of Mus musculus with 12 samples.

Results

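The 84 genes described here are those whose table symbol marks a protein of the cytosolic ribosome, out of 23235 genes in the table. They were taken by name: symbols that start with Rpl or Rps and a number, plus Rplp0, Rplp1, Rplp2 and Rpsa, without the Rps6k kinases, the rows marked as pseudogenes, and Rpl10 and Rpl10l. By name they divide into 45 genes of the large subunit (3 of them for the P stalk), 31 of the small subunit, 7 paralogs and Rps19bp1, which encodes a binding partner of a ribosomal protein and no ribosomal protein. The 7 paralogs are Rpl22l1, Rpl36al, Rpl39l, Rpl3l, Rpl7l1, Rps27l and Rps4y2, and RefSeq lists Rps4y2 as a transcribed pseudogene under the symbol Rps4l. RefSeq (GRCm38.p6) places 3 members on the X chromosome (Rpl36a, Rpl39 and Rps4x), 0 on the Y chromosome and the other 81 on autosomes.

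The samples were sorted mouse spermatocytes on a C57BL/6 background, in 4 groups of 3 libraries: Rnaseh1 knock-out pachytene, wild-type (WT) pachytene, Rnaseh1 knock-out leptotene/zygotene (LZ) and WT LZ cells. In meiotic prophase I, LZ cells precede pachytene cells, and Rnaseh1 encodes an RNase that degrades RNA paired with DNA. Cells were isolated by fluorescence-activated sorting with a purity check, polyadenylated RNA was amplified as cDNA, and values are FPKM (fragments mapped to a gene, per length of its transcript and relative to all mapped fragments) that the authors scaled by ERCC spike-in RNA. The labels name neither the allele, any Cre driver, the age of the mice nor whether replicates came from separate animals, so p-values measure only the spread between these libraries.

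Rnaseh1 itself had 77.3, 68.9 and 94.3 FPKM in knock-out pachytene libraries, against 52.7, 51.7 and 56.8 FPKM in WT pachytene libraries. At LZ it had 11.0, 18.3 and 14.8 FPKM in knock-out libraries, against 16.1, 20.5 and 16.8 FPKM in WT libraries. Neither difference passed the test (limma, adjusted p = 0.0638 at pachytene and 0.407 at LZ), so the libraries are called KO-labelled throughout. A gene-level FPKM does not show whether a deleted exon is missing. Because FPKM gives no read counts, the depth of each library is unknown. The summed FPKM of all genes was 4811570 to 6702160 in KO-labelled pachytene, 3319970 to 4183730 in WT pachytene, 430372 to 512468 in KO-labelled LZ and 609831 to 885259 in WT LZ libraries. In bulk samples of this kind, fewer cells of a type and less RNA per cell cannot be told apart.

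Markers of other testis cells differed between the groups. Of the 12 round spermatid markers, 12 were in the table, none was at 0 in all 3 libraries of a group, and their summed FPKM was 1863 to 9809 in KO-labelled pachytene against 38350 to 46694 in WT pachytene libraries. At LZ that sum was 837 to 5839 in KO-labelled against 15254 to 33048 in WT libraries. The 9 Leydig cell markers, with Lhcgr at 0 in WT LZ, summed to 2922 to 7777 in KO-labelled pachytene, 3355 to 10561 in WT pachytene, 111 to 176 in KO-labelled LZ and 155 to 329 in WT LZ libraries. At pachytene 3 more lists had lower sums in KO-labelled than in WT libraries with no overlap: spermatogonia markers at 378 to 574 against 592 to 712 FPKM (8 of 10 called lower), Sertoli cell markers at 667 to 713 against 1083 to 1418 FPKM (1 of 9), and peritubular and endothelial cell markers at 184 to 233 against 557 to 714 FPKM (3 of 7). Of all genes, 14.3% were called lower in that comparison, and the Sertoli cell count was near that share. Markers of the sorted stages also separated the genotypes on the spike-in scale. Pachytene markers summed to 60602.9 to 93537.8 FPKM in KO-labelled against 33843.7 to 44542.5 FPKM in WT pachytene libraries. Leptotene/zygotene markers summed to 11895.3 to 12065.8 against 8680.35 to 11336.5 FPKM there. In LZ libraries both lists were lower in KO-labelled cells, at 1705.98 to 2020.6 against 2858.4 to 4216.59 FPKM and 2035.91 to 3081.89 against 3398.79 to 3903.53 FPKM. The part of other testis cells in the results below was not tested.

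The cytosolic ribosome translates mRNA into protein: its small subunit reads the message and its large subunit forms the peptide bonds. Apart from the acidic stalk proteins, its proteins are assembled in equal numbers, and their mRNAs typically start with a run of pyrimidines, the terminal oligopyrimidine (TOP) motif, through which growth signals control their translation. Male germ cells silence the X chromosome during pachytene, and several X-linked ribosomal protein genes have autosomal relatives that are known to be active in the testis, among them Rpl10l for Rpl10 and Rpl39l for Rpl39.

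Promoter sequences from RefSeq were available for 63 of the 84 genes, with 75 entries that reach from 250 bases before to 50 bases after the annotated start. A pyrimidine run of at least 5 bases that begins with C at the start itself was present in 13 of these 75 entries (17.3%), against 823 of 32851 promoters of all genes (2.51%). A window of 30 bases around the start is shown for 5 of the 13, chosen as examples, since this is the sequence feature by which these mRNAs are known as a class. The run that begins at the first transcribed base is in capitals, and strands and positions are on GRCm38.p6. Rpl35a also has entries at other annotated starts, with runs of 1 and 0 bases, that are not shown.
Rps6, chr4:86857353-86857382, minus strand: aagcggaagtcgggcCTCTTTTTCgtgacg
Rpl38, chr11:114668565-114668594, plus strand: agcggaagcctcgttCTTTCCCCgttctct
Rplp2, chr7:141447636-141447665, plus strand: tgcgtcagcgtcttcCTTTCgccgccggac
Rpl35, chr2:39005117-39005146, minus strand: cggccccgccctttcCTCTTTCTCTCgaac
Rpl35a, chr16:33056467-33056496, plus strand: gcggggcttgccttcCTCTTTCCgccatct

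Another feature was more frequent in these promoters than over all promoters. The motif CCGGAAG, the core to which ETS-family factors are known to bind, was found on either strand in 27 of 75 entries (36%), against 8.86% of all 32851 promoters. TATAAA was found in 9.33% against 13.6%, GATTGG in 16.0% against 16.1% and CACGTG in 10.7% against 7.15% of member entries and all promoters, each on both strands. A match describes letters in a window and no binding site. The 120 bases before the start are shown for the pairs of an X-linked gene and its autosomal paralog, since these pairs separate below, with CCGGAAG on either strand in capitals.
Rpl39, chrX:37085223-37085342, minus strand: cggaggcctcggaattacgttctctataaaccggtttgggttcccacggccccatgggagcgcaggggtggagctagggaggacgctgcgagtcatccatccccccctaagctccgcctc
Rpl39l, chr16:10170108-10170227, plus strand: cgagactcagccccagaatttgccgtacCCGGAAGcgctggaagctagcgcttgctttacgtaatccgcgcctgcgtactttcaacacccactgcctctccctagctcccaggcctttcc
Rpl36a, chrX:134585534-134585653, plus strand: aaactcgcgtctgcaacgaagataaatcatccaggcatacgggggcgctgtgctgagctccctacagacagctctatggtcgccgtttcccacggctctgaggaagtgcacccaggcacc
Rpl36al, chr12:69184068-69184187, minus strand: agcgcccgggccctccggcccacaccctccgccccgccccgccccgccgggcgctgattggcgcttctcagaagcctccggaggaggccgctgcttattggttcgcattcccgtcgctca
The window of Rpl39l alone of these 4 held the motif, and Rpl39 held it outside its window, elsewhere in its promoter entry.

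As a share of the summed FPKM of all genes, which does not depend on the spike-in factor, the 84 genes took less at pachytene than at LZ in every library of both genotypes. The share was 7.59, 7.46 and 8.70% in KO-labelled pachytene libraries and 7.94, 8.17 and 7.12% in WT pachytene libraries. At LZ it was 12.1, 12.9 and 12.6% in KO-labelled libraries and 12.5, 10.1 and 9.79% in WT libraries. The means were 7.92 ± 0.681% (KO-labelled pachytene), 7.74 ± 0.551% (WT pachytene), 12.5 ± 0.374% (KO-labelled LZ) and 10.8 ± 1.50% (WT LZ; SD, n = 3 each). The stages did not overlap in either genotype, whereas the genotypes overlapped at both stages, and WT LZ replicate 1 stood with the KO-labelled LZ libraries. These shares are a description and carry no test.

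The 76 genes of the mitochondrial ribosome, which translates the few mRNAs of mitochondrial DNA, gave a different picture in the same libraries. Their share was 1.33 ± 0.0739% in KO-labelled pachytene, 1.37 ± 0.125% in WT pachytene, 1.46 ± 0.163% in KO-labelled LZ and 1.34 ± 0.0691% in WT LZ libraries (SD, n = 3 each), with the stages overlapping in both genotypes. Within the cytosolic set, small subunit genes made up 41.2 ± 0.643% of the summed FPKM in KO-labelled pachytene, 40.6 ± 0.546% in WT pachytene, 44.3 ± 0.400% in KO-labelled LZ and 44.1 ± 1.43% in WT LZ libraries. The X-linked genes made up 0.0925 ± 0.0178% of it in KO-labelled pachytene, 0.288 ± 0.0245% in WT pachytene, 0.880 ± 0.0452% in KO-labelled LZ and 0.711 ± 0.0830% in WT LZ libraries.

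**Figure D1:**
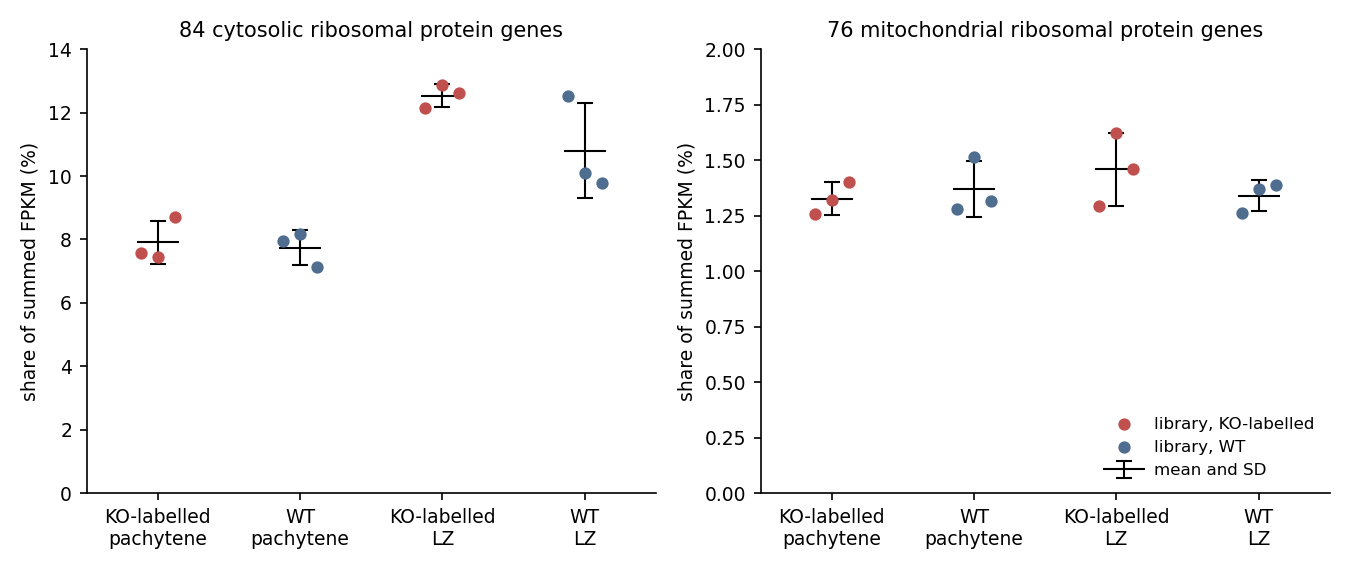
Share of the summed FPKM of all genes (%, y axes from 0) taken by 84 cytosolic (left) and 76 mitochondrial (right) ribosomal protein genes, by group, with 1 point per library and the mean and SD in black. The cytosolic share was 7.12 to 8.70% in the 6 pachytene libraries and 9.79 to 12.9% in the 6 LZ libraries, while the mitochondrial shares of the stages overlap.

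On the spike-in scale the levels ran the other way, since the summed FPKM of all genes was several-fold higher at pachytene. The summed FPKM of the 84 genes was 452961 ± 48641 in KO-labelled pachytene, 297687 ± 34144 in WT pachytene, 59438 ± 6464 in KO-labelled LZ and 83924 ± 25688 in WT LZ libraries (SD, n = 3 each). Levels within a library spread widely. Rpl41, which encodes the shortest ribosomal protein, had the highest mean level per length over the 12 libraries. It had 37467, 32773 and 29839 FPKM in KO-labelled pachytene libraries, against 18693, 24590 and 22445 FPKM in WT pachytene libraries. At LZ it had 2603, 3213 and 3518 FPKM in KO-labelled libraries, against 5671, 4561 and 3202 FPKM in WT libraries. Its groups overlapped at LZ and did not at pachytene. Rpl38, which is known to influence the translation of Hox mRNAs in mouse embryos, Rps28, Rpl13 and Rpl35 followed in the order of means.

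At the low end stood Rpl3l, the muscle paralog of Rpl3, with 0 to 6.44 FPKM over the 12 libraries and a mean of 2.17 FPKM. Rps4x followed with 88.6 to 188 FPKM at pachytene and 7.17 to 29.0 FPKM at LZ. Rps15a, Rpl22 and Rpl7l1 came next, with means over 12 libraries of 105, 130 and 161 FPKM, against 15715 FPKM for Rpl41. Reads shared with other genes bear on such levels: over 83 members with a transcript in GENCODE M21, a median of 40.1% of the 50-base stretches also occurred in transcripts of other genes. For 28 members this share was above 50%, among them Rpl36a, Rps4x, Rpl22l1 and Rps27, so their levels are uncertain where the counting could split reads, while for Rpl39l it was 0.

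The first comparison asked how the genotypes differed at pachytene. On the spike-in scale 40 of the 84 genes were higher in KO-labelled cells, where 24.6% of all 15400 genes tested were called higher, and 1 was lower, where 14.3% of all genes were called lower (limma, Benjamini-Hochberg adjusted p under 0.05). The higher genes were 25 of 45 large subunit genes, 12 of 31 small subunit genes and 3 of 7 paralogs. The median log2 change was 0.59 for the members and 0.37 for all genes, so the members lay 0.22 above it, and 69 of 84 lay above the all-gene median. With a pseudocount of 5 the medians were 0.59 and 0.28, with 73 members above. Of the 84 genes, 70 had all 3 KO-labelled libraries above all 3 WT libraries, as did 36.4% of all genes tested, and 3 had them all below, as did 18% of all genes. The lower gene was Rpl36a, and the other 2 with no overlap downward were Rpl39 and Rps4x, which are the remaining X-linked members.

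Much of the upward count depended on the scale and on single libraries. After median-ratio scaling, in which each library is divided by its median ratio to the mean of all libraries, 3 members were higher (3.57% of all genes) and 3 lower (9.62% of all genes), and with libraries scaled to 1 sum, 1 was higher (0.273%) and 4 lower (9.18%). The higher members were Rpl22l1 under both, with Rpl11 and Rps7 after median-ratio scaling. The 3 X-linked members were lower under both. Leaving out KO-labelled pachytene replicate 1, 2 or WT pachytene replicate 1, 2 or 3 took the higher count to 1, 3, 4, 8 and 18, and the share of all genes called higher to 1.95, 2.40, 6.06, 5.18 and 25.6%.

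Rpl36a, on the X chromosome, was the member that fell. Its product sits in the large subunit close to the site where tRNAs leave. It had 132, 111 and 138 FPKM in KO-labelled pachytene libraries, against 347, 487 and 356 FPKM in WT pachytene libraries. Every KO-labelled library lay below every WT library, and the log2 change was -1.62 ± 0.27 (SE; limma, adjusted p = 0.00259). The call held under all 18 alternatives run, including both other scalings.

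Rpl39, also X-linked and encoding a small protein of the wall of the peptide exit tunnel, pointed the same way without passing. It had 152, 164 and 211 FPKM in KO-labelled pachytene libraries, against 286, 354 and 244 FPKM in WT pachytene libraries. The groups did not overlap, with a log2 change of -0.74 ± 0.28 (limma, adjusted p = 0.0509), and the gene was called after median-ratio scaling (-1.08, adjusted p = 0.0233) and with libraries scaled to 1 sum (-1.29, adjusted p = 0.00801). It was also called without KO-labelled LZ replicate 1, WT LZ replicate 1 or 3, KO-labelled pachytene replicate 3 or WT pachytene replicate 3, with adjusted p of 0.0313 to 0.0493, and the range over all alternatives was 0.00801 to 0.159.

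Rps4x, the X-linked gene of a small subunit protein, had 125, 88.6 and 124 FPKM in KO-labelled pachytene libraries, against 134, 188 and 178 FPKM in WT pachytene libraries. Its groups did not overlap either, and the log2 change of -0.57 ± 0.30 did not pass on the spike-in scale (limma, adjusted p = 0.133), but passed after median-ratio scaling (-0.90, adjusted p = 0.0392) and with libraries scaled to 1 sum (-1.11, adjusted p = 0.0166). As a frame for these 3 genes, 362 of the 609 other X-linked genes tested were lower in KO-labelled pachytene cells and 5 were higher. Of all genes, 14.3% were called lower and 24.6% higher. The median log2 change of the 609 genes was -1.15, against 0.37 for all genes. The round spermatid markers were lower in the same comparison, 11 of 12 tested. Their part in the result was not tested.

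Among the autosomal members, Rps27 had the highest log2 change of the called genes. Rps27 encodes a zinc-finger protein of the small subunit. It had 21788, 13723 and 15498 FPKM in KO-labelled pachytene libraries, against 4826, 5110 and 6600 FPKM in WT pachytene libraries. The groups were well apart, with a log2 change of 1.61 ± 0.46 (limma, adjusted p = 0.0220). Without KO-labelled pachytene replicate 1 or 2, or WT pachytene replicate 1 or 2, it no longer passed (adjusted p = 0.0879, 0.0542, 0.0657 and 0.0659), and the range over all alternatives was 0.00481 to 0.114.

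Rpl22l1, the paralog of Rpl22, an RNA-binding protein of the large subunit, had 3702, 2651 and 2475 FPKM in KO-labelled pachytene libraries, against 1141, 1522 and 1408 FPKM in WT pachytene libraries. All KO-labelled libraries lay above the WT ones, and the log2 change was 1.10 ± 0.24 (limma, adjusted p = 0.00885). This call held under every alternative run, with log2 changes of 0.53 to 1.22. Rpl22 itself had 184, 159 and 219 FPKM in KO-labelled and 152, 196 and 164 FPKM in WT pachytene libraries. These overlapped, with a log2 change of 0.13 ± 0.28 (limma, adjusted p = 0.708) that turned to -0.21 after median-ratio scaling and -0.43 with libraries scaled to 1 sum.

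Rpl11, whose product is known to bind Mdm2 when ribosome assembly is disturbed, had 5729, 4722 and 4278 FPKM in KO-labelled and 2324, 2871 and 2665 FPKM in WT pachytene libraries. Rps7, of the small subunit, had 5801, 4868 and 4540 FPKM in KO-labelled and 2677, 2764 and 2855 FPKM in WT pachytene libraries. Rpl8, of the large subunit, had 4762, 4213 and 3875 FPKM in KO-labelled and 2400, 2355 and 2271 FPKM in WT pachytene libraries. In each of these 3 genes the lowest KO-labelled library was above the highest WT library. Their log2 changes were 0.90 ± 0.22, 0.87 ± 0.20 and 0.87 ± 0.24 (limma, adjusted p = 0.0144, 0.0124 and 0.0196). Without KO-labelled pachytene replicate 1 the adjusted p were 0.0629, 0.0545 and 0.0791, and Rpl8 was also lost without KO-labelled pachytene replicate 2 (0.0637) or WT pachytene replicate 2 (0.0541). Over all alternatives the adjusted p were 0.00815 to 0.0740 for Rpl11, 0.00653 to 0.119 for Rps7 and 0.0103 to 0.301 for Rpl8.

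The P stalk, which recruits elongation factors to the large subunit, was read through its 3 genes. Rplp0, its base, had 12790, 11003 and 9180 FPKM in KO-labelled pachytene libraries, against 5363, 7719 and 7901 FPKM in WT pachytene libraries, a log2 change of 0.66 ± 0.21 (limma, adjusted p = 0.0311), and the groups did not overlap. Rplp1 and Rplp2, the acidic proteins bound to that base, had log2 changes of 0.46 ± 0.22 and 0.18 ± 0.27 and did not pass (limma, adjusted p = 0.109 and 0.596), and with libraries scaled to 1 sum both signs turned (-0.11 and -0.39), as did that of Rplp2 after median-ratio scaling (-0.17). Rpsa, known also as the laminin receptor gene, had 964, 873 and 797 FPKM in KO-labelled and 583, 692 and 619 FPKM in WT pachytene libraries, which did not overlap and did not pass either (0.47 ± 0.25, limma, adjusted p = 0.134; -0.10 with libraries scaled to 1 sum). Rps27a, which encodes a small subunit protein fused to ubiquitin, was called higher (0.74 ± 0.24, limma, adjusted p = 0.0301). Rplp0 was not called without KO-labelled pachytene replicate 1 or 2 or WT pachytene replicate 1 or 2 (adjusted p of 0.0569 to 0.123), nor Rps27a without KO-labelled pachytene replicate 1 or 2 or any WT pachytene replicate (0.0513 to 0.117), and Rpsa passed without WT LZ replicate 1 (0.0467). Over all alternatives the adjusted p were 0.0207 to 0.641 for Rplp0, 0.0191 to 0.510 for Rps27a and 0.0467 to 0.784 for Rpsa. A difference between these genes' changes was not tested.

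**Figure D2:**
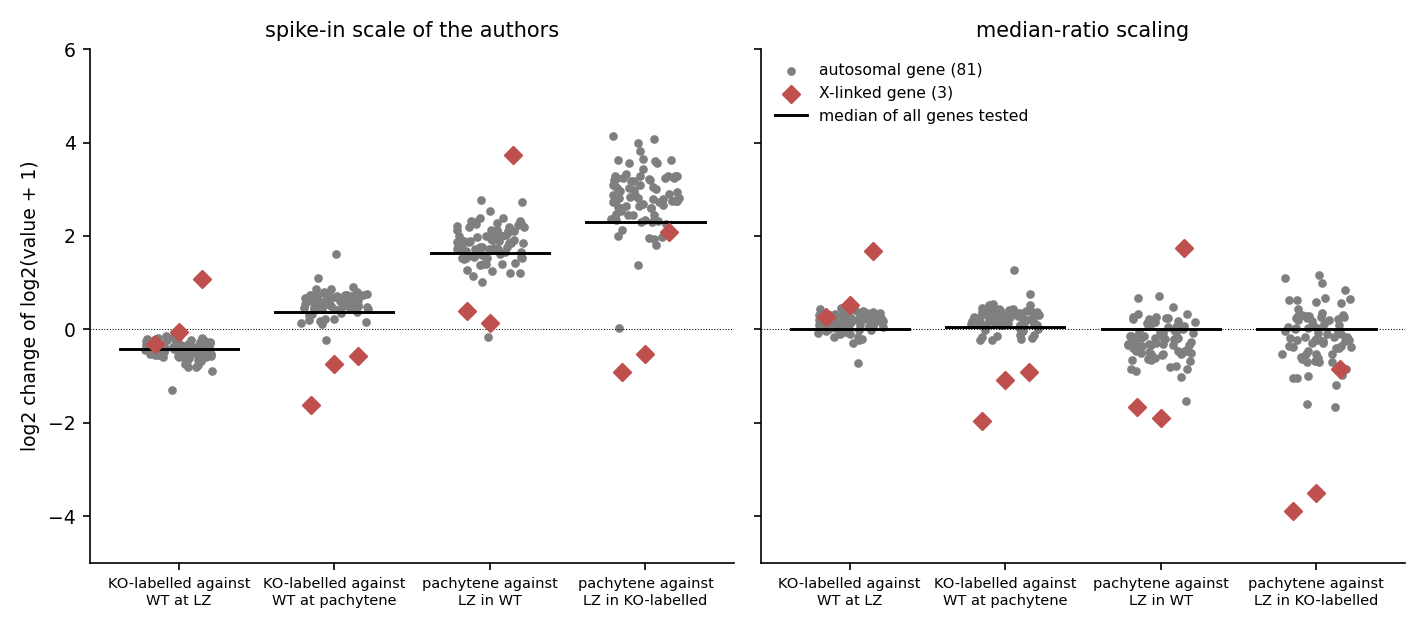
log2 change of each of the 84 genes on log2(value + 1) in 4 comparisons, on the spike-in scale (left) and after median-ratio scaling (right), with autosomal genes in grey, X-linked genes as red diamonds and the median of all 15400 genes tested as a black bar. On the spike-in scale, 46 of 81 autosomal genes lie above the all-gene median for the genotypes at LZ and 69 at pachytene. Between stages 57 (WT) and 71 (KO-labelled) do, and the KO-labelled changes run from 0.03 to 4.14. After median-ratio scaling 66, 69, 24 and 34 lie above it in the same order. With a pseudocount of 5 on the spike-in scale (not drawn), 16 of all 84 genes lie above it for the genotypes at LZ and 73 at pachytene. The X-linked genes lie below it in both panels for KO-labelled against WT at pachytene and for pachytene against LZ in KO-labelled cells. Rps4x alone lies far above it at LZ and in the WT stage comparison.

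At LZ the genotypes differed in few members. With spike-in scaling, 1 of the 84 genes was higher in KO-labelled cells, where 0.136% of all genes were called higher, and 3 were lower, where 12.9% of all genes were called lower (limma). The median log2 change was -0.41 for the members and -0.43 for all genes, with 49 members above and 35 below the all-gene median. This comparison depended on the pseudocount. With a pseudocount of 5 the medians were -0.40 and -0.25, with 16 members above and 68 below. All 3 KO-labelled libraries lay above the WT ones for 1 member (0.935% of all genes) and below them for 14 (36.5% of all genes). Rpl26 and Rpl30 were among the lower genes.

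Rpl26, a large subunit protein known to bind the p53 mRNA, had 52.8, 67.0 and 90.5 FPKM in KO-labelled LZ libraries, against 210, 183 and 128 FPKM in WT LZ libraries. The groups did not overlap, and the log2 change was -1.30 ± 0.26 (limma, adjusted p = 0.0173). Rpl30, a large subunit protein at the interface with the small subunit, had 55.9, 95.3 and 96.5 FPKM in KO-labelled and 172, 139 and 137 FPKM in WT LZ libraries (-0.88 ± 0.26, limma, adjusted p = 0.0427). Both calls were lost after median-ratio scaling and with libraries scaled to 1 sum, where limma called 0 members lower (0.688% and 0.883% of all genes) and 1 member each was lower at an unadjusted p under 0.05. Rpl26 was not called without WT LZ replicate 1 or 2 (adjusted p = 0.0752 each; 0.0106 to 0.188 over all alternatives). Rpl30 was not called without any KO-labelled LZ replicate, WT LZ replicate 1 or 2, KO-labelled pachytene replicate 2 or WT pachytene replicate 3 (0.0549 to 0.156; 0.0400 to 0.550 over all alternatives). The count of lower members was 38 without WT LZ replicate 3 (19% of all genes), and 0 without WT LZ replicate 1 or 2 (0.039% and 0.026% of all genes; limma, with 6 and 12 members at an unadjusted p under 0.05). It was 1 without KO-labelled LZ replicate 1, 2 or 3, KO-labelled pachytene replicate 2 or WT pachytene replicate 3, where 11.7, 2.21, 0.571, 9.94 and 10.8% of all genes were called lower.

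The gene that was higher was the X-linked Rps4x. It had 29.0, 21.5 and 26.0 FPKM in KO-labelled LZ libraries, against 19.2, 10.8 and 7.17 FPKM in WT LZ libraries. The lowest KO-labelled library lay just above the highest WT library, replicate 1. The log2 change was 1.08 ± 0.30 (limma, adjusted p = 0.0363), and it was 1.69 after median-ratio scaling (adjusted p = 0.0213) and 1.76 with libraries scaled to 1 sum (adjusted p = 0.0133), where 2 members were called higher (0.916% of all genes), Rps4x and Rpl4, a large subunit gene named here after its value was seen. The call was lost without any 1 of the 6 LZ libraries (adjusted p of 0.0588 to 0.117), and the range over all alternatives was 0.0133 to 0.117. Rpl36a and Rpl39 had log2 changes of -0.32 ± 0.27 and -0.06 ± 0.28 at LZ and were not called; both signs turned positive under the other scalings (0.27 and 0.52 by median ratio, 0.36 and 0.61 with 1 sum).

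Whether the genotype difference itself differed between the stages was tested as the difference of the differences. On the spike-in scale it was higher at pachytene for 64 of the 84 genes, where 34.9% of all genes were called so, and lower for 2, where 3.49% of all genes were called so (limma). The median was 0.98 for the members and 0.72 for all genes (0.49 for all genes with a pseudocount of 5). The 2 lower genes were Rps4x (-1.64 ± 0.42, limma, adjusted p = 0.0117) and Rpl36a (-1.31 ± 0.38, limma, adjusted p = 0.0177). Both calls held under every alternative run.

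Of the 64 higher genes, 0 were called after median-ratio scaling (2.37% of all genes) or with libraries scaled to 1 sum (0.591% of all genes), where limma gave 3 and 2 higher members at an unadjusted p under 0.05. After median-ratio scaling the members called were the 3 X-linked ones, Rpl36a at -2.22, Rps4x at -2.59 and Rpl39 at -1.60, all lower (4.36% of all genes; limma, adjusted p = 0.0176, 0.0176 and 0.0324). With libraries scaled to 1 sum, 4 were lower (5.59% of all genes), the 3 X-linked members and Rps19, a small subunit gene named here after its value was seen. On the spike-in scale the higher count was 26 without KO-labelled pachytene replicate 1 (22.1% of all genes), 38 without KO-labelled LZ replicate 1 (27.9%) and 39 without KO-labelled pachytene replicate 2 (24.1%) or WT pachytene replicate 1 (26.4%). It was 35 without WT LZ replicate 1 (25.8%) and 42 without WT LZ replicate 2 (24.3%).

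**Figure D3:**
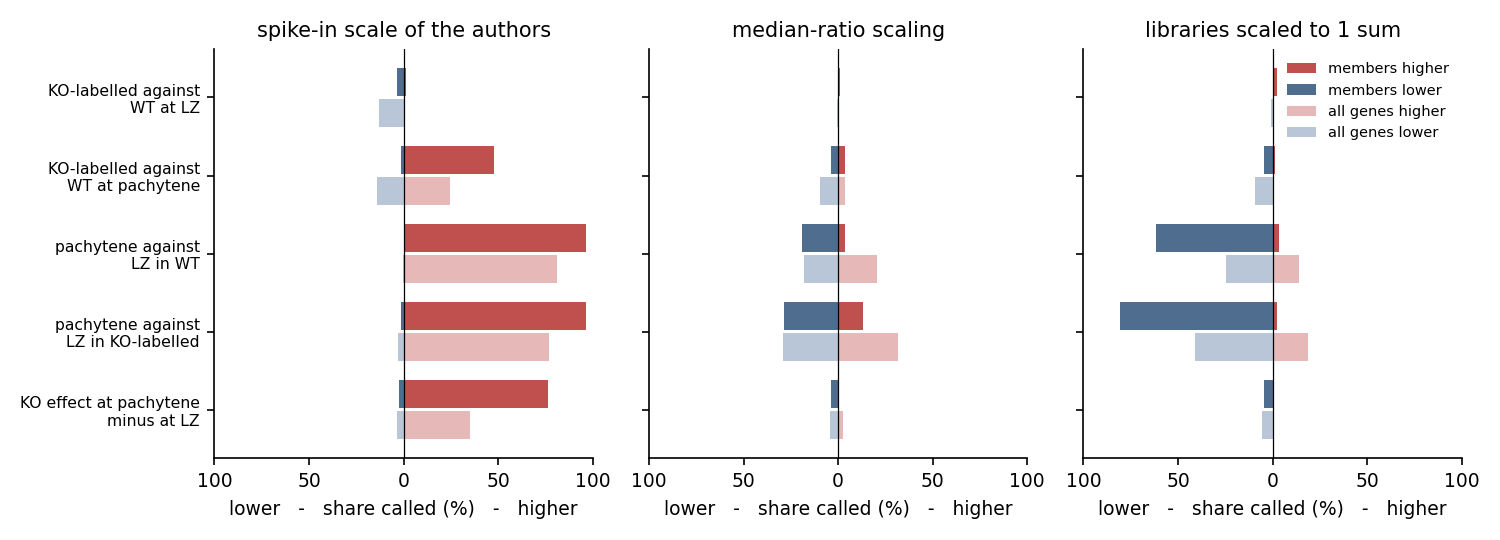
Share of the 84 members (dark bars) and of all 15400 genes tested (light bars) that limma called higher (right of 0) or lower (left of 0), in %, for 5 comparisons and 3 scalings. On the spike-in scale members were called higher more often than all genes in the 5 comparisons. At LZ this rested on 1 member, Rps4x (1.19% against 0.136% of all genes). With libraries scaled to 1 sum the stage comparisons turned round, to 52 (WT) and 68 (KO-labelled) members lower.

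The stage comparison in WT cells set pachytene against LZ. Of the 84 genes, 81 were higher at pachytene on the spike-in scale, where 80.9% of all genes were called higher, and 0 were lower, where 0.487% of all genes were called lower (limma; also 0 lower at an unadjusted p under 0.05). The median log2 change was 1.85 for the members and 1.64 for all genes, and 1.85 and 1.18 with a pseudocount of 5. The 3 genes that did not pass were Rpl36a, Rpl39 and the low Rpl3l. In KO-labelled cells 81 were higher, where 76.8% of all genes were called higher, and 1 was lower, where 2.83% of all genes were called lower, with medians of 2.81 for the members and 2.29 for all genes. The lower gene was Rpl36a.

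Relative to the other genes of a library, the counts depended on the scaling. After median-ratio scaling 3 members were higher (Rpl24, Rpl39l and Rps4x; 20.4% of all genes) and 16 lower (17.8%) at pachytene in WT cells, with a median of -0.21, and in KO-labelled cells 11 were higher (31.7%) and 24 lower (29.3%), with a median of -0.18. The shares of members called lower were near those of all genes. With libraries scaled to 1 sum, 3 were higher (13.7%) and 52 lower (24.9%) in WT cells, and 2 higher (18.7%) and 68 lower (41.1%) in KO-labelled cells.

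Members differed among themselves in the size of the stage difference. Rpl39l, the testis-active paralog of Rpl39, had 6213, 5024 and 4777 FPKM in KO-labelled pachytene and 2803, 4084 and 3547 FPKM in WT pachytene libraries. It had 294, 325 and 321 FPKM in KO-labelled LZ and 588, 567 and 376 FPKM in WT LZ libraries. Pachytene lay far above LZ in both genotypes, with log2 changes of 4.08 ± 0.22 in KO-labelled and 2.78 ± 0.22 in WT cells (limma, adjusted p = 9.53e-10 and 1.17e-07). Both calls held under every alternative run, and the changes were 1.09 and 0.72 after median-ratio scaling.

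Rpl39, the X-linked partner, was not called in either genotype. It had 199, 267 and 306 FPKM in KO-labelled LZ and 396, 263 and 178 FPKM in WT LZ libraries, beside the pachytene values given above. The stages overlapped in both genotypes, with log2 changes of -0.54 ± 0.28 in KO-labelled and 0.14 ± 0.28 in WT cells (limma, adjusted p = 0.0938 and 0.648). After median-ratio scaling these were -3.51 and -1.91, and both passed (limma, adjusted p = 1.65e-06 and 0.000274). Without KO-labelled LZ replicate 1 the KO-labelled change also passed on the spike-in scale (-0.71, limma, adjusted p = 0.0458, within a range over all alternatives of 2.60e-07 to 0.262).

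Rpl36al, an autosomal gene that encodes a near copy of the Rpl36a protein, was likewise called where its X-linked partner was not higher. It had 7814, 6837 and 6812 FPKM in KO-labelled pachytene and 3927, 5500 and 4204 FPKM in WT pachytene libraries. It had 462, 648 and 652 FPKM in KO-labelled LZ and 1010, 911 and 680 FPKM in WT LZ libraries. Its log2 changes between stages were 3.62 ± 0.22 in KO-labelled and 2.39 ± 0.22 in WT cells (limma, adjusted p = 2.03e-09 and 3.34e-07), and after median-ratio scaling 0.63 (adjusted p = 0.0164) and 0.34 (adjusted p = 0.207). With libraries scaled to 1 sum they were 0.025 in KO-labelled and 0.053 in WT cells and neither was called (limma, adjusted p = 0.884 and 0.782). Rpl36a had 241, 221 and 260 FPKM in KO-labelled LZ and 480, 260 and 215 FPKM in WT LZ libraries. Between stages Rpl36a changed by -0.92 ± 0.27 in KO-labelled cells (limma, adjusted p = 0.00568) and by 0.39 ± 0.27 in WT cells (limma, adjusted p = 0.186), the second becoming -1.66 after median-ratio scaling and -1.94 with libraries scaled to 1 sum, both called. Without WT LZ replicate 1 the WT change was 0.73 and passed (limma, adjusted p = 0.00883, within a range over all alternatives of 6.66e-05 to 0.611).

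**Figure D4:**
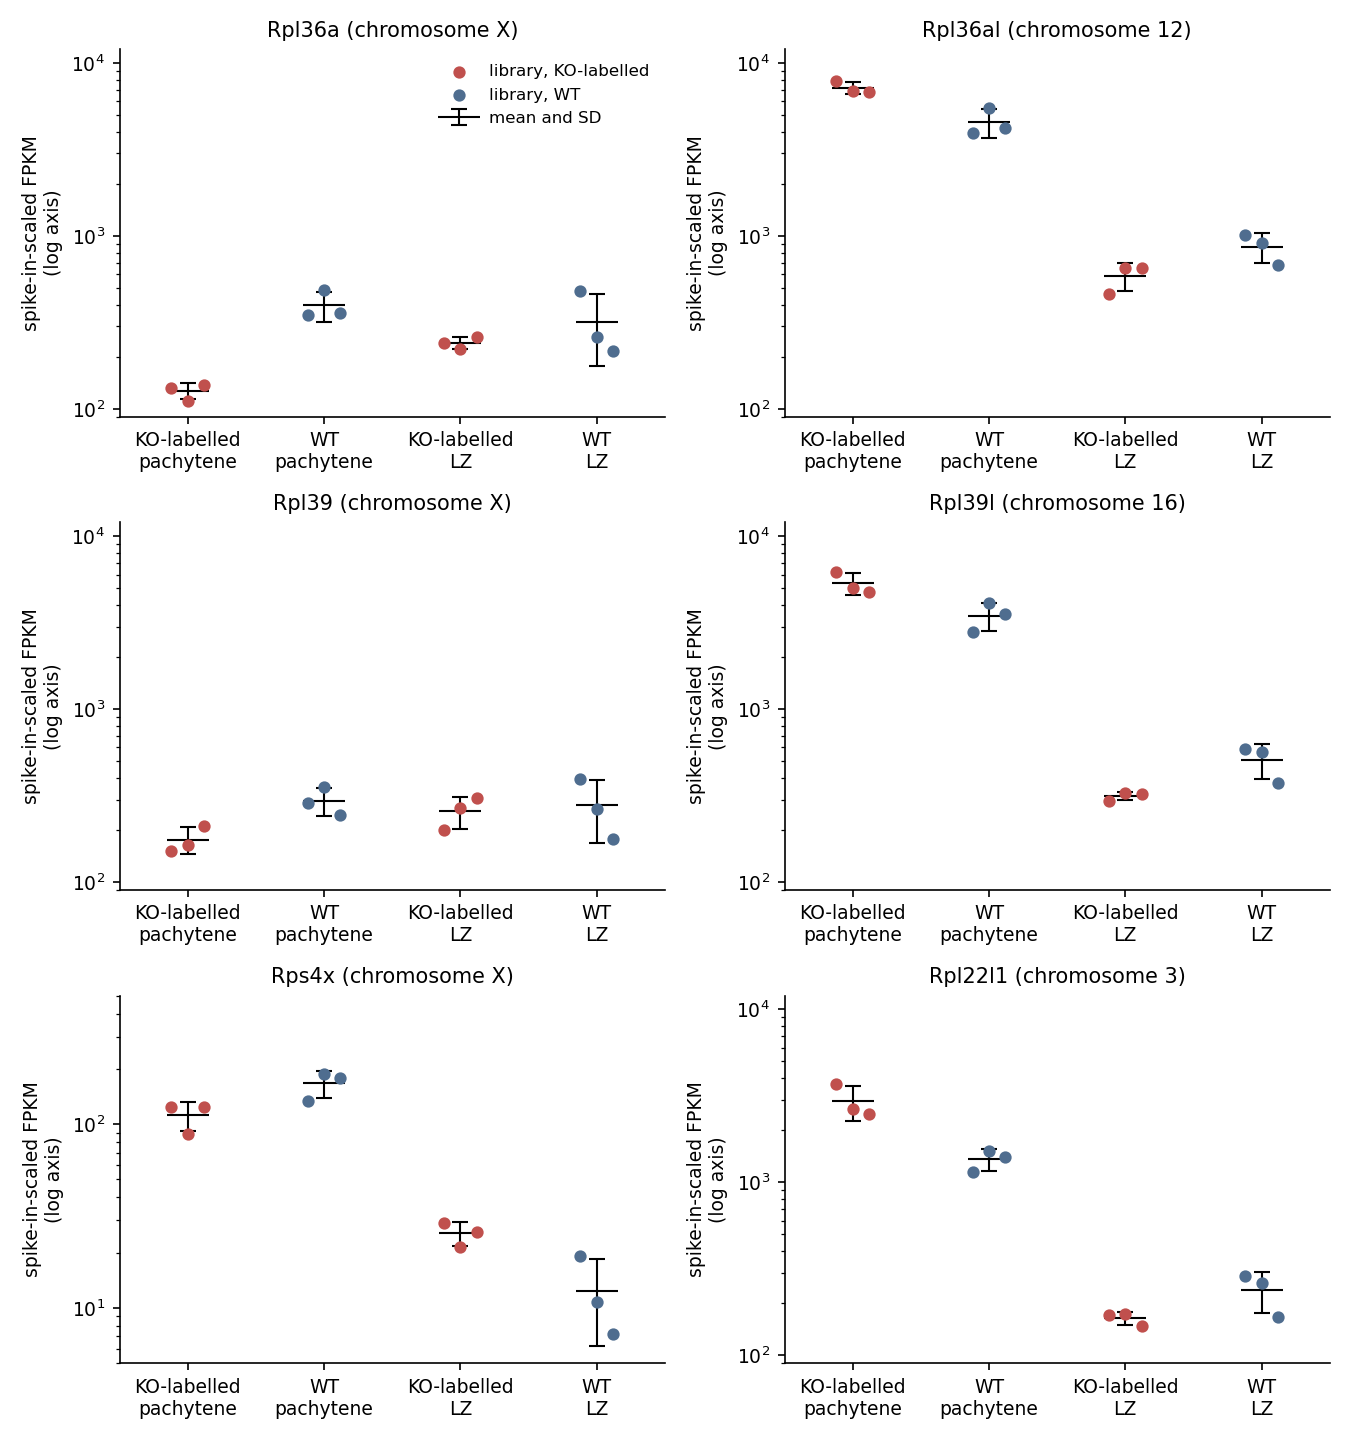
Spike-in-scaled FPKM (log axes) of the X-linked Rpl36a, Rpl39 and Rps4x (left) and of the autosomal Rpl36al, Rpl39l and Rpl22l1 (right), with 1 point per library and the mean and SD in black; the axis of Rps4x is lower than the others. Rpl36al and Rpl39l are at 2803 to 7814 FPKM in all 6 pachytene libraries, while Rpl36a and Rpl39 are at 111 to 487 FPKM there.

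Rps4x was the exception among the X-linked members. Its log2 change between stages was 2.09 ± 0.30 in KO-labelled and 3.73 ± 0.30 in WT cells (limma, adjusted p = 1.53e-05 and 1.44e-07). The WT change held its sign under the other scalings (1.75 by median ratio and 1.45 with 1 sum), and the KO-labelled one reversed to -0.84 and -1.42. Of the 609 other X-linked genes, 114 were higher and 175 lower at pachytene in KO-labelled cells, and 261 were higher and 25 lower in WT cells. Of all genes, 76.8% were called higher and 2.83% lower in KO-labelled cells, and 80.9% and 0.487% in WT cells.

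Other members with the highest stage changes were Rpl24, Rpl22l1, Rps27 and Rpl26. Rpl24, a large subunit protein that bridges to the small subunit, had 8767, 7634 and 7092 FPKM in KO-labelled pachytene and 4635, 6095 and 5063 FPKM in WT pachytene libraries. It had 434, 628 and 609 FPKM in KO-labelled LZ and 943, 844 and 611 FPKM in WT LZ libraries. The stages were far apart, with log2 changes of 3.82 ± 0.22 in KO-labelled and 2.73 ± 0.22 in WT cells (limma, adjusted p = 1.49e-09 and 1.38e-07). Rpl22l1 had 170, 172 and 148 FPKM in KO-labelled LZ and 289, 262 and 166 FPKM in WT LZ libraries, with stage changes of 4.14 ± 0.24 in KO-labelled and 2.53 ± 0.24 in WT cells. Rps27 had 591, 985 and 1981 FPKM in KO-labelled LZ and 3479, 2035 and 873 FPKM in WT LZ libraries, a wide spread within each group, with stage changes of 3.99 ± 0.46 in KO-labelled and 1.57 ± 0.46 in WT cells, the second turning to -0.48 after median-ratio scaling and -0.77 with libraries scaled to 1 sum. Rpl26 changed by 3.64 ± 0.26 in KO-labelled and 1.58 ± 0.26 in WT cells, the second turning to -0.46 and -0.75 under these scalings. Each of these changes was called on the spike-in scale (limma, adjusted p of 1.46e-09 to 0.00675). With libraries scaled to 1 sum the KO-labelled changes of Rpl24, Rps27 and Rpl26 were 0.23, 0.39 and 0.06 and were not called, nor was the WT change of Rpl22l1 (0.19).

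A ratio of 2 genes within a library is free of the spike-in factor. The share of Rpl39l in the sum of Rpl39l and Rpl39 was 97.6, 96.8 and 95.8% in KO-labelled pachytene and 90.7, 92.0 and 93.6% in WT pachytene libraries. It was 59.7, 55.0 and 51.2% in KO-labelled LZ and 59.8, 68.3 and 67.8% in WT LZ libraries. No KO-labelled library overlapped a WT library of its stage, with KO-labelled above WT at pachytene and below it at LZ. The share of Rpl36al in its pair was 98.3, 98.4 and 98.0% in KO-labelled pachytene and 91.9, 91.9 and 92.2% in WT pachytene libraries. At LZ it was 65.7, 74.6 and 71.5% in KO-labelled and 67.8, 77.8 and 76.0% in WT libraries, which overlapped.

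Expressed as log2 ratios, Rpl39l over Rpl39 differed by 1.37 and Rpl36al over Rpl36a by 2.29 between KO-labelled and WT cells at pachytene. Rpl22l1 over Rpl22 differed by 0.97 there, and Rps27l over Rps27 by -1.45. Rps27l, a paralog known to respond to p53, made up 24.8, 31.1 and 29.3% of its pair in KO-labelled pachytene and 48.9, 59.2 and 47.4% in WT pachytene libraries. The levels of Rps27l itself overlapped there, at 7193, 6192 and 6413 FPKM in KO-labelled and 4618, 7400 and 5959 FPKM in WT libraries. Between stages in KO-labelled cells the differences were 4.62 for Rpl39l over Rpl39, 4.54 for Rpl36al over Rpl36a, 2.77 for Rpl22l1 over Rpl22 and -2.05 for Rps27l over Rps27. In WT cells they were 2.64, 2.0, 1.53 and -0.32 in the same order.

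Each of these differences apart from the last had no overlap between its groups and the smallest p that 3 against 3 libraries allow (exact two-sided permutation test, p = 0.1; 0.133 adjusted over 24 comparisons), so none could pass 0.05. At LZ, Rpl39l over Rpl39 was lower in KO-labelled than in WT cells by 0.61 with no overlap, whereas the Rpl36al and Rpl22l1 ratios overlapped between genotypes (-0.24 and -0.27, exact p = 0.4 each). Rpl7l1 over Rpl7 was lower in KO-labelled cells by 0.41 at pachytene and by 0.30 at LZ, and lower at pachytene than at LZ by 0.78 in KO-labelled and 0.68 in WT cells, with no overlap in any of the 4.

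**Figure D5:**
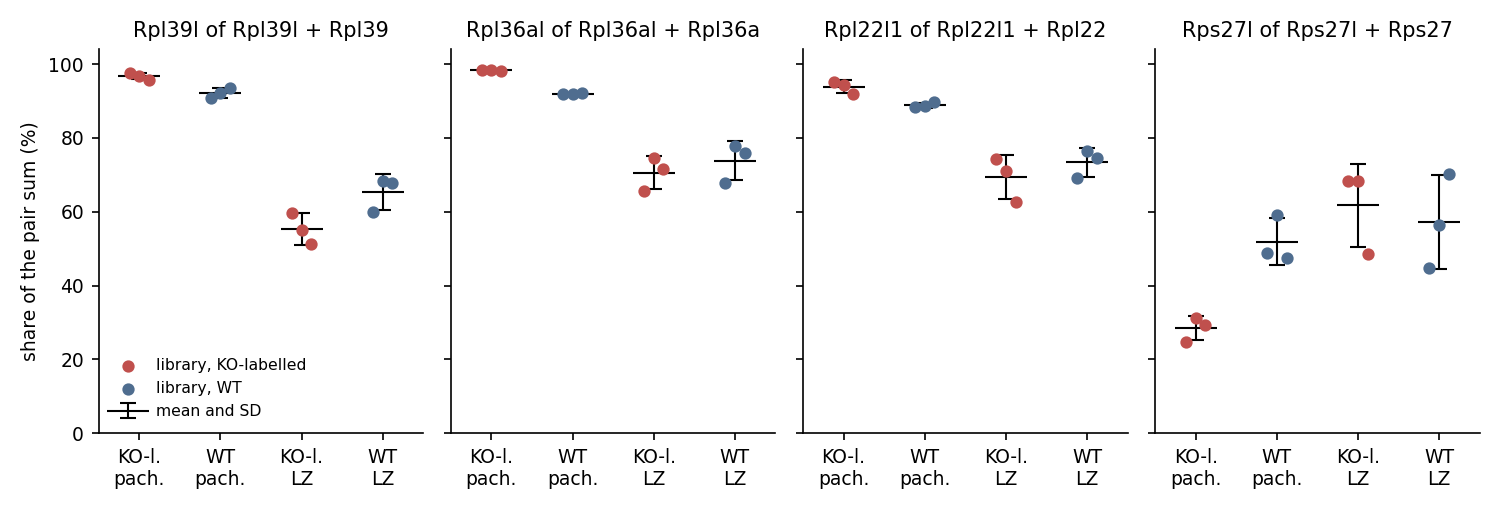
Share (%, y axes from 0) of a paralog in the summed FPKM of the paralog and its partner, by group, with 1 point per library and the mean and SD in black (KO-l. is KO-labelled). Rpl39l, Rpl36al and Rpl22l1 make up 88.2 to 98.4% of their pairs in all 6 pachytene libraries, while Rps27l makes up 24.8 to 31.1% in KO-labelled and 47.4 to 59.2% in WT pachytene libraries. The levels of Rps27l itself overlap between the genotypes at pachytene.

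Rpl10 and Rpl10l, an X-linked gene and its testis-active autosomal paralog outside the set, were read beside these pairs. Rpl10l made up 94.2, 94.0 and 91.2% of the pair in KO-labelled pachytene and 81.6, 81.7 and 86.5% in WT pachytene libraries. At LZ it made up 49.6, 49.6 and 46.5% in KO-labelled and 40.2, 58.2 and 51.1% in WT libraries. At pachytene Rpl10l was higher in KO-labelled cells (0.75 ± 0.22, limma, adjusted p = 0.0224) and Rpl10 lower (-0.71 ± 0.25, limma, adjusted p = 0.0418). Without KO-labelled pachytene replicate 1 or 2 or WT pachytene replicate 1 or 2 neither was called (adjusted p of 0.0575 to 0.0939 for Rpl10l and 0.0842 to 0.130 for Rpl10), and Rpl10 was also lost without WT pachytene replicate 3 (0.0549) or WT LZ replicate 2 (0.0505). Rpl10l was also not called after median-ratio scaling (0.40, limma, adjusted p = 0.120) or with libraries scaled to 1 sum (0.17, limma, adjusted p = 0.447). Over all alternatives the adjusted p were 0.0151 to 0.447 for Rpl10l and 0.00412 to 0.130 for Rpl10.

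Genes that act with the ribosome were read from lists at pachytene on the spike-in scale. There 24.6% of all genes were called higher and 14.3% lower. Of 17 elongation factor and other TOP genes tested, 13 were higher in KO-labelled cells, led by Pabpc1, the poly(A)-binding protein (1.05, limma, adjusted p = 0.00752), and Eef2, which drives translocation (1.04, limma, adjusted p = 0.0164). Of 72 ribosome assembly factors, 22 were higher and 4 lower, and the 2 with the largest changes were the X-linked Dkc1, the pseudouridine synthase (-1.60, limma, adjusted p = 0.00324), and Utp14a (-1.38, limma, adjusted p = 0.00490). Of 18 genes of RNA polymerase I, its factors and the Myc family, 8 were higher and 3 lower, among them Mycn (-1.72, limma, adjusted p = 0.00703) and Taf1c (1.05, limma, adjusted p = 0.0238). Eef2 was not called without KO-labelled pachytene replicate 1 or 2 or WT pachytene replicate 2 (adjusted p of 0.0548 to 0.0714), nor Taf1c without KO-labelled pachytene replicate 1 or 2 or WT pachytene replicate 1 or 2 (0.0594 to 0.0955). Over all alternatives the adjusted p were 0.00923 to 0.137 for Eef2 and 0.00808 to 0.337 for Taf1c. Pabpc1 (0.47, limma, adjusted p = 0.145) and Mycn (-0.83, limma, adjusted p = 0.0833) were not called with libraries scaled to 1 sum. Mycn was near the floor, at 0, 0.47 and 0.39 FPKM in KO-labelled pachytene against 5.52, 2.46 and 2.25 FPKM in WT pachytene libraries. Of the 76 mitochondrial ribosomal protein genes, 22 were higher and 1 lower.

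At LZ 12.9% of all genes were called lower, and the 3 lists given here were near that share. Of the 72 assembly factors, 10 were lower in KO-labelled cells, with Nvl (-1.02, limma, adjusted p = 0.0195) and Imp3 (-0.87, limma, adjusted p = 0.0304) first, and 2 of 18 polymerase I and Myc family genes were lower, Max (-0.90) and Ttf1 (-0.81). Without WT LZ replicate 1 or 2, or KO-labelled LZ replicate 2 or 3, none of these 4 was called (adjusted p of 0.0530 to 0.144), and Imp3 and Ttf1 were also lost without KO-labelled LZ replicate 1 (0.0569 and 0.0526) and Ttf1 without KO-labelled pachytene replicate 2 (0.0543). Over all alternatives the adjusted p were 0.0126 to 0.242 for Nvl, 0.0141 to 0.489 for Imp3, 0.0263 to 0.366 for Max and 0.0208 to 0.574 for Ttf1. Of the 76 mitochondrial ribosomal protein genes 11 were lower. Between stages in WT cells, 67 of 72 assembly factors were higher at pachytene (80.9% of all genes) and 1 lower (0.487%), with Sbds (3.52) and Rrs1 (3.39) first. After median-ratio scaling that split became 6 higher and 22 lower, while the mitochondrial ribosomal protein genes had 21 higher and 7 lower, beside 20.4% of all genes higher and 17.8% lower.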

How the data were processed

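Polyadenylated RNA of sorted mouse spermatocytes was amplified as cDNA and sequenced, in 4 groups of 3 libraries. The deposited values are FPKM per gene, which the authors scaled by ERCC spike-in RNA. TopHat2 2.1.1, Cufflinks 2.2.1 and the build mm9 are named, per the submitters' processing notes. The scaling formula, annotation and filters are not given in the sources used here, the table holds 0 ERCC entries, and 4 unnamed columns were not used. A change in a spike-in factor would move all genes of a library together. Depth is unknown, so no counting interval is given.

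Genes at 1 FPKM or more in at least 3 of the 12 libraries (15400) were analysed as log2(FPKM + 1), a scale that understates changes of low genes. All 12 libraries entered 1 limma fit with mean-variance trend (limma 3.58.1, R 4.3.3), with Benjamini-Hochberg adjustment over all genes and a threshold of 0.05. The procedure was tested on simulated data with independent noise for each gene and 200 changed genes. The simulation held no shift shared by the genes of a library, so it does not bear on such shifts. Ratios of paralogs within a library were compared by exact two-sided permutation tests over libraries (scipy 1.17.1, Python 3.11.15). Groups came from the sample titles and values from the matching column names.

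Alternatives were a pseudocount of 5, no filter, median-ratio scaling, libraries scaled to 1 sum, only the 6 libraries compared, a replicate block, and each library left out. Chromosomes and promoters came from RefSeq (GRCm38.p6), with 82 members matched by symbol and 2 by synonym. Named members were the P stalk genes, Rpsa, Rps27a, X-linked members, paralogs and partners, those with the highest and lowest means, the called members with the largest changes and no overlap, those with the smallest interaction p, and the leading called genes of each list. The members and lists were chosen with earlier results of these data known. One result for a member is not reported here.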

Additional observations from a re-analysis of the deposited data

Results flagged for a closer look

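The genotype differences of the 2 stages differed by the interaction test, which sets the KO-labelled minus WT difference at pachytene against that at LZ (limma, spike-in scale). It was higher at pachytene for 64 members, where 34.9% of all genes were called so, and lower for 2, where 3.49% of all genes were called so. Among the members with the smallest p, the log2 interaction was 2.06 for Rpl26, 1.61 for Rpl22l1, 1.30 for Rpl39l, 1.26 for Rplp0 and 1.22 for Rps7. It was -1.64 for Rps4x and -1.31 for Rpl36a. The negative pair held under both other scalings, whereas no positive call did. Groups of 3 libraries are too small for the outlier comparison, so no single library was tested in that way.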

How the results depend on the processing

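Counts of called members follow the order of the settings named. KO-labelled against WT at LZ gave 0, 0, 2 and 0 higher members with a pseudocount of 5, no filter, libraries scaled to 1 sum and only the 6 libraries compared (1 at an unadjusted p under 0.05 in the last, where limma called 0 of all genes and 4682 had an unadjusted p under 0.05). Of all genes, 0.0455, 0.0148, 0.916 and 0% were called higher in that order. Lower members were 1, 1, 0, 0 and 0 with a pseudocount of 5, no filter, median-ratio scaling, 1 sum and the 6 libraries. The shares of all genes called lower were 7.15, 4.44, 0.688, 0.883 and 0%. At pachytene, 22, 3 and 1 were higher with no filter, median-ratio scaling and 1 sum, and 2, 3, 4 and 2 lower with a pseudocount of 5, median-ratio scaling, 1 sum and the 6 libraries. The shares of all genes were 15.8, 3.57 and 0.273% higher and 16.6, 9.62, 9.18 and 13.7% lower. Between stages, median-ratio scaling and 1 sum gave 3 and 3 higher and 16 and 52 lower in WT cells, and 11 and 2 higher and 24 and 68 lower in KO-labelled cells. The shares of all genes were 20.4 and 13.7% higher and 17.8 and 24.9% lower in WT cells. In KO-labelled cells they were 31.7 and 18.7% higher and 29.3 and 41.1% lower. The interaction had 0 and 0 higher members under these scalings (2.37 and 0.591% of all genes) and 4 lower with 1 sum (5.59%). With a pseudocount of 5 the log2 ratio of Rpl3l over Rpl3 between genotypes at LZ turned to 0.011. The cause was not tested.

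With 1 library left out, higher and lower counts were 0 to 1 and 0 to 38 at LZ, 1 to 50 and 1 to 2 at pachytene, 81 to 82 and 0 to 0 for the WT stages, 81 to 81 and 1 to 2 for the KO-labelled stages, and 26 to 77 and 2 to 2 for the interaction. Over the same settings the shares of all genes called higher and lower were 0 to 0.481% and 0.026 to 19% at LZ, 1.95 to 29.9% and 6.35 to 15.2% at pachytene, and 22.1 to 38.4% and 2.16 to 4.67% for the interaction. They were 74.3 to 82.1% and 0.292 to 0.591% for the WT stages, and 74.3 to 76.9% and 2.01 to 3.12% for the KO-labelled stages. The members' mean share was 7.53 to 8.14% in KO-labelled pachytene, 7.53 to 8.05% in WT pachytene, 12.4 to 12.7% in KO-labelled LZ and 9.94 to 11.3% in WT LZ.

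Reversed log2 values, median-ratio scaling first and 1 sum second, were these. At LZ Rpl36a had 0.27 and 0.36, Rpl39 0.52 and 0.61, Rpl36al 0.026 and 0.12 and Rpl22l1 0.075 and 0.17, and Rpl39l had 0.0045 with 1 sum. At pachytene Rplp2 had -0.17 and -0.39 and Rpl22 -0.21 and -0.43, and with 1 sum Rplp1 had -0.11 and Rpsa -0.099. Between WT stages Rpl36a had -1.66 and -1.94, Rpl39 -1.91 and -2.19, Rpl26 -0.46 and -0.75 and Rps27 -0.48 and -0.77, and between KO-labelled stages Rps4x had -0.84 and -1.42. The interaction of Rps7 was -0.036 and of Rpl36al -0.027 with 1 sum. Without WT LZ replicate 1, Rpl36a had 0.023 and Rpl39 0.22 at LZ, and Rpl39 had 0.11 without KO-labelled LZ replicate 1. Over all libraries left out in turn, the ranges at LZ were -0.56 to 0.023 for Rpl36a and -0.35 to 0.22 for Rpl39, and between WT stages -0.15 to 0.43 for Rpl39. Between WT stages Rpl39 had -0.15 without WT LZ replicate 3 and -0.00083 without WT pachytene replicate 2. Of the other values for named genes, 964 kept direction and side of the threshold, 162 lost a call and 21 gained one.

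Same-numbered libraries did not deviate together in every pair (correlations of -0.17 to 0.08 between genotypes at pachytene, -0.00062 to 0.22 between genotypes at LZ, 0.083 to 0.26 between KO-labelled stages and 0.027 to 0.16 between WT stages), so the numbers were not taken as pairs. With the replicate block, higher and lower members were 1 and 2 at LZ, 32 and 1 at pachytene, 81 and 0 for the WT stages, 81 and 1 for the KO-labelled stages, and 55 and 2 for the interaction. The shares of all genes called higher and lower with it were 0.169 and 13.4% at LZ and 20.5 and 14.5% at pachytene. They were 82.2 and 0.5% for the WT stages, 77.6 and 2.85% for the KO-labelled stages, and 31.8 and 3.5% for the interaction. At pachytene not every library correlated best with its own number. Unknown depth limits what low members such as Rpl3l can show.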
